A study of Mus musculus x Mus spretus with 8 samples.

Results

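Sirpa, Stom, Malrd1, Tgm5, Olfm1 and Chst1 are 6 genes of mouse chromosome 2, out of 49670 genes in the count table and 3791 on that chromosome. They were picked by symbol, after their total RNA and their allelic reads had been seen, as chromosome 2 genes whose level moved with genome 1, the copy of the chromosome that gave the smaller share of its reads. Their values in the comparisons with wild type are therefore descriptions and carry no test. Sirpa, Stom and Malrd1 came closest to the working description, as they were read mainly from genome 1 in wild type. Genome 2 reads of Sirpa and Stom moved in the same direction as their genome 1 reads. Olfm1 was read from both genomes, and Tgm5 and Chst1 mainly from genome 2, so for these genes the description held in part.

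RNA was measured in 8 libraries of Patski, a female mouse fibroblast line whose parents were C57BL/6 and SPRET/EiJ (Mus spretus), grown in DMEM with 10% FBS. There were 2 libraries each of wild type (WT) and of lines labelled Stc1-KO (stc1 -/-), Pygo1-KO (pygo1 -/-) and Rlim-KO (rlim -/-). The series text describes the knockouts of each gene as independent mutants and gives no origin for the 2 WT libraries, so differences are set against the spread of 2 libraries that may be technical replicates. The 2 Rlim-labelled libraries were also close to each other. On chromosome 14 the median genome 1 share, defined below, was 67.4 and 67% in them and 62.5% in both WT libraries. It was 51.5 and 61.6% under the Stc1 label, and 99.2 and 50.9% under the Pygo1 label. Whether the Rlim-labelled pair are independent mutants was not tested. All 3 comparisons share the same WT pair. Total counts were 73128996 to 81500061 per library, and 50.64 to 52.64% of them carried a genome. No targeted gene was called lower under its own label, although Pygo1 was lower in 1 of 2 libraries: Stc1 stood at 3.67 and 68.4 CPM under the Stc1 label against 3.84 and 3.14 in WT, Pygo1 at 2.50 and 0.674 against 2.49 and 2.44, and Rlim at 71.9 and 64.2 against 57.2 and 51.4 (CPM are counts per unit of scaled library size; edgeR, adjusted p = 0.236, 0.715 and 0.699). Each group is therefore named by its label. Of 12 fibroblast markers, Vim (833 to 1279 CPM), Fn1 (1545 to 4562) and Col5a1 (199 to 376) were abundant, whereas 6, among them Col1a2, Thy1, Lum and Fap, stayed under 1 CPM in every library.

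An autosomal gene is as a rule transcribed from the maternal and the paternal copy, and a few genes are read from a single copy because of imprinting, random choice of a copy or sequence differences near the gene. In a hybrid of distant strains, reads across a base that differs between the parents can be given to a parental genome, here genome 1 or genome 2. The genome 1 share is the percentage of such reads that came from genome 1. Neither parent is named in the labels as genome 1 or genome 2. Counts of RNA do not measure how many DNA copies of a chromosome the cells hold.

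The 6 genes lie apart from each other on the chromosome and belong to different gene families. On GRCm38, the build for which symbols and positions were matched, Malrd1 lies on the plus strand at chr2:15526479-16255555, Olfm1 on the plus strand at chr2:28192992-28230736, and Stom on the minus strand at chr2:35313986-35336976. Further along lie Chst1 (plus strand, chr2:92599707-92615250), Tgm5 (minus strand, chr2:121046111-121085841) and Sirpa (plus strand, chr2:129592835-129632228). No exon of the 6 shares a base with an exon of another annotated gene, although introns of Malrd1 and Tgm5 hold pseudogenes or unclassified transcripts. Of the 50-base windows of their main transcripts, none occurred in a transcript of another gene except 15 of the 2631 windows of Chst1 (0.6%). Reads were counted per gene and are not tied to a transcript. The coding starts of 4 of the genes are shown to identify them: 3 that were read mainly from genome 1 in WT, and Olfm1, whose reads moved from genome 2 to genome 1. They are the first 60 coding bases in GENCODE M21, 5′ to 3′, with the start codon in capitals.
Sirpa: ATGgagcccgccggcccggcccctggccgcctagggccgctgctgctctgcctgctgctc
Stom: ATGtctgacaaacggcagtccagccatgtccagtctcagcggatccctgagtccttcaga
Malrd1: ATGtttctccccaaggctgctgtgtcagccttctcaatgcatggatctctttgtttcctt
Olfm1: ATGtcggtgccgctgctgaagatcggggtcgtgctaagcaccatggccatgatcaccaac

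Under the Stc1 label all 6 genes stood below both WT libraries, and under the Rlim label all 6 stood above both. Under the Pygo1 label 5 stood below both WT libraries, and Olfm1 overlapped them. Among all 17839 genes tested, 22.2% lay below both WT libraries under the Stc1 label, 31% under the Pygo1 label, and 35.7% above both under the Rlim label. On total counts the edgeR test called 0.577%, 2.35% and 1.4% of all genes in either direction in these 3 comparisons, and 0.291% lower, 0.807% lower and 0.785% higher. On the genome share it called 4.08%, 14.5% and 7.98%. Because the genes were chosen for this pattern, the counts are set beside those percentages without a reading. The summed level of the fibroblast markers was 3459 and 3606 CPM in WT, 5186 to 5980 in the Stc1-labelled and Pygo1-labelled libraries, and 2709 and 2736 under the Rlim label. Most of that sum was Fn1, at 2230 and 2343 CPM in WT, 3808 to 4562 in the Stc1-labelled and Pygo1-labelled libraries, and 1545 and 1593 under the Rlim label. The part of the sum in the values of the 6 genes was not tested. In these bulk libraries fewer cells with a transcript and less of it per cell cannot be told apart.

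**Figure D1:**
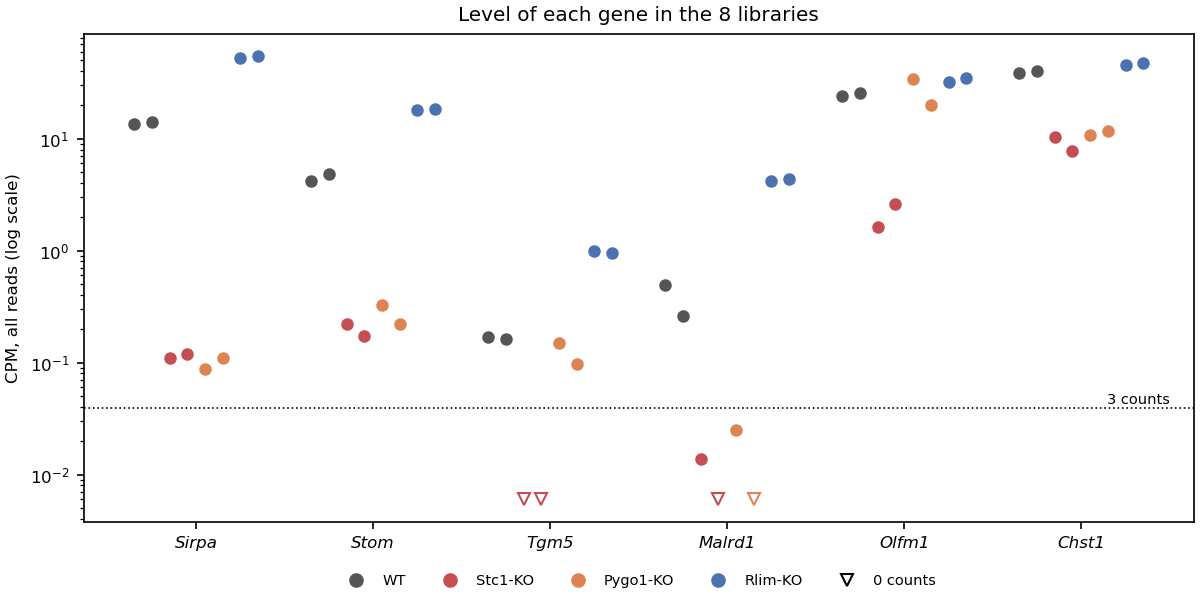
Level of the 6 genes in each library, in CPM of all reads on a log scale, coloured by label, with open triangles for 0 counts and a dotted line at the level of 3 counts. Sirpa spans from 0.0881 to 54.8 CPM, and every Rlim-labelled library lies above the WT libraries for each gene.

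Sirpa encodes signal regulatory protein alpha, the cell-surface receptor of CD47 that restrains phagocytosis in myeloid cells. It was counted at 1045 and 1113 reads in WT (13.6 and 13.9 CPM), at 8 and 9 under the Stc1 label (0.111 and 0.12 CPM) and at 7 and 8 under the Pygo1 label (0.0881 and 0.11 CPM). Under the Rlim label it reached 3986 and 4265 reads (52.2 and 54.8 CPM). The Stc1-labelled and Pygo1-labelled pairs lay close together, far below WT, and the Rlim-labelled pair lay far above WT. Sirpa was 119-fold lower under the Stc1 label (pooled counts, 95% counting interval 74.4 to 205), 140-fold lower under the Pygo1 label (84.5 to 250.1) and 3.89-fold higher under the Rlim label, with log2 differences of -6.88 ± 0.19, -7.10 ± 0.19 and 1.96 ± 0.13 (SE, n = 2 per group).

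Most Sirpa reads came from genome 1. Its genome 1 share was 90.6% (95% Wilson interval 88.1 to 92.6%) and 88.1% (85.4 to 90.3%) in WT, and 93.6% in each Rlim-labelled library (92.6 to 94.4% in both). Under the Stc1 label 9 of 10 reads with a genome were genome 1, and under the Pygo1 label 8 of 10, so the few remaining reads were again mostly genome 1. Genome 2 reads also differed, at 0.794 and 1.03 CPM in WT, 0 and 0.0133 under the Stc1 label, 0 and 0.0275 under the Pygo1 label, and 2.24 and 2.34 under the Rlim label. In pooled counts genome 2 reads were 135-fold lower (counting interval 23.8 to 5351) and 69.5-fold lower (18.9 to 579) under the Stc1 and Pygo1 labels. Genome 1 reads were 125-fold and 145-fold lower. Under the Rlim label genome 2 reads were 2.51-fold higher (2.06 to 3.07) and genome 1 reads 4.39-fold higher. Of the difference from WT in reads with a genome, 89.3% lay on genome 1 for the Stc1 label, 89.4% for the Pygo1 label and 94.9% for the Rlim label.

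Stom encodes stomatin, an integral protein of lipid rafts that binds cholesterol and modulates ion channels and glucose transport. Its level was 4.21 and 4.79 CPM in WT, 0.222 and 0.173 under the Stc1 label, 0.327 and 0.22 under the Pygo1 label, and 18.1 and 18.3 under the Rlim label. It was 22.8-fold lower, 16.4-fold lower and 4.04-fold higher than in WT (log2 -4.50 ± 0.27, -4.03 ± 0.26 and 2.02 ± 0.22, SE, n = 2 per group). As for Sirpa, both low labels lay below WT and the Rlim label above it, with no overlap with WT.

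The reads of Stom that stayed came from genome 2, unlike those of Sirpa. The genome 1 share was 88.3% (82.7 to 92.2%) and 81.4% (75.7 to 86%) in WT and 88.9% (86.2 to 91%) and 93.8% (91.8 to 95.3%) under the Rlim label. Genome 1 gave 0 of 11 and 1 of 10 reads under the Stc1 label, and 1 of 13 and 2 of 12 under the Pygo1 label. In pooled counts, genome 1 gave 333 reads in WT, 1 under the Stc1 label and 3 under the Pygo1 label. Genome 2 gave 61, 20 and 22, which was 2.87-fold lower (counting interval 1.71 to 5.02) and 2.69-fold lower (1.63 to 4.61). Under the Rlim label genome 2 reads were 2.02-fold higher (1.47 to 2.79), and 94% of the difference lay on genome 1.

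Malrd1, also known as Diet1, encodes a protein of MAM and LDL receptor class A repeats that affects FGF15 release from the intestine and bile acid levels. It was counted at 38 and 21 reads in WT, 1 and 0 under the Stc1 label, 2 and 0 under the Pygo1 label, and 318 and 340 under the Rlim label. Its WT level of 0.495 and 0.263 CPM was low, whereas the Rlim-labelled libraries stood at 4.17 and 4.37 CPM. Pooled counts gave a ratio of WT to label of 55.5 for Stc1 (counting interval 9.58 to 2229) and 28.7 for Pygo1 (7.59 to 242), and of Rlim label to WT of 11.3 (8.67 to 15.1). Malrd1 gave no genome 2 read in any of the 8 libraries. In WT 45 reads carried a genome and all were genome 1, as were all 490 under the Rlim label (genome 1 share 100%, Wilson interval 99.2 to 100%).

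Tgm5 encodes transglutaminase 5, an enzyme that cross-links proteins of the epidermal cornified envelope. It was counted at 13 and 13 reads in WT, 0 and 0 under the Stc1 label, 12 and 7 under the Pygo1 label, and 76 and 74 under the Rlim label. Against a floor of 3 counts per library, it was at least 4.08-fold lower under the Stc1 label. Under the Pygo1 label the pooled ratio of WT to label was 1.33 (counting interval 0.708 to 2.54), which was not detectable as a difference at this depth. The Rlim-labelled libraries held 5.86 times the WT reads (3.85 to 9.26).

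Tgm5 did not follow genome 1 in WT, where 4 reads were genome 1 and 19 genome 2 (pooled share 17.4%, Wilson interval 6.98 to 37.1%). Under the Pygo1 label 0 of 15 reads were genome 1, and genome 2 reads were 1.23-fold lower than in WT (0.593 to 2.6). Under the Rlim label genome 1 gave 41 reads and genome 2 gave 49 (share 45.6%, 35.7 to 55.8%). Genome 1 reads were 10.4 times those of WT (3.77 to 40.03) and genome 2 reads 2.62 times (1.51 to 4.71), so both copies gave more reads there.

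Olfm1 encodes olfactomedin 1 (noelin), a secreted glycoprotein best known from the nervous system. Its level was 24.1 and 25.4 CPM in WT, 1.63 and 2.62 under the Stc1 label, 33.8 and 20 under the Pygo1 label, and 32 and 35 under the Rlim label. The Pygo1-labelled libraries lay on either side of WT. Olfm1 was 11.6-fold lower under the Stc1 label (log2 -3.54 ± 0.33) and 1.35-fold higher under the Rlim label (log2 0.44 ± 0.29), and the log2 difference for the Pygo1 label was 0.12 ± 0.29 (SE, n = 2 per group).

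The total of Olfm1 hid opposite movements of its copies. In WT the genome 1 share was 40.9% (37.6 to 44.3%) and 40.5% (37.3 to 43.9%). It was 0 of 50 reads (0 to 7.13%) and 8.64% (4.25 to 16.8%) under the Stc1 label, 2.51% (1.74 to 3.6%) and 1.89% (1.06 to 3.35%) under the Pygo1 label, and 87.5% (85.4 to 89.3%) and 85.2% (83.2 to 87%) under the Rlim label. Genome 1 reads stood at 4.39 and 4.31 CPM in WT, 0.352 and 0.151 under the Pygo1 label, and 12.8 and 14.3 under the Rlim label. Genome 2 reads stood at 6.33 CPM in both WT libraries, 13.7 and 7.87 under the Pygo1 label, and 1.84 and 2.48 under the Rlim label. The near-equal totals of WT, Pygo1-labelled and Rlim-labelled libraries were thus made of different copies. Under the Stc1 label both copies were lower, with genome 2 at 0.693 and 0.985 CPM, and 56.1% of the difference lay on genome 2.

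Chst1 encodes keratan sulfate Gal-6 sulfotransferase, a Golgi enzyme that adds sulfate to galactose of keratan sulfate. Its level was 38.3 and 39.9 CPM in WT, 10.4 and 7.8 under the Stc1 label, 10.8 and 11.8 under the Pygo1 label, and 45.7 and 47 under the Rlim label. It was 4.29-fold lower, 3.45-fold lower and 1.19-fold higher than in WT (log2 -2.10 ± 0.17, -1.79 ± 0.16 and 0.25 ± 0.16, SE, n = 2 per group). All label pairs lay outside the WT range, the Rlim pair by the smallest margin.

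Chst1 was read mainly from genome 2 in every library. Its genome 1 share was 13.3% (11.4 to 15.6%) and 14.2% (12.3 to 16.3%) in WT, 1.47% (0.573 to 3.72%) and 4.72% (2.58 to 8.46%) under the Stc1 label, 5.41% (3.41 to 8.5%) and 4.62% (2.77 to 7.6%) under the Pygo1 label, and 35.5% (32.9 to 38.2%) and 33.8% (31.3 to 36.4%) under the Rlim label. Genome 2 reads were 3.72-fold lower under the Stc1 label (counting interval 3.36 to 4.13) and 3.08-fold lower under the Pygo1 label (2.81 to 3.39). They made up 82.8% and 82.6% of the difference from WT. Under the Rlim label genome 1 reads were 3.05 times those of WT (2.67 to 3.49) and genome 2 reads 0.921 times (0.862 to 0.984).

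**Figure D2:**
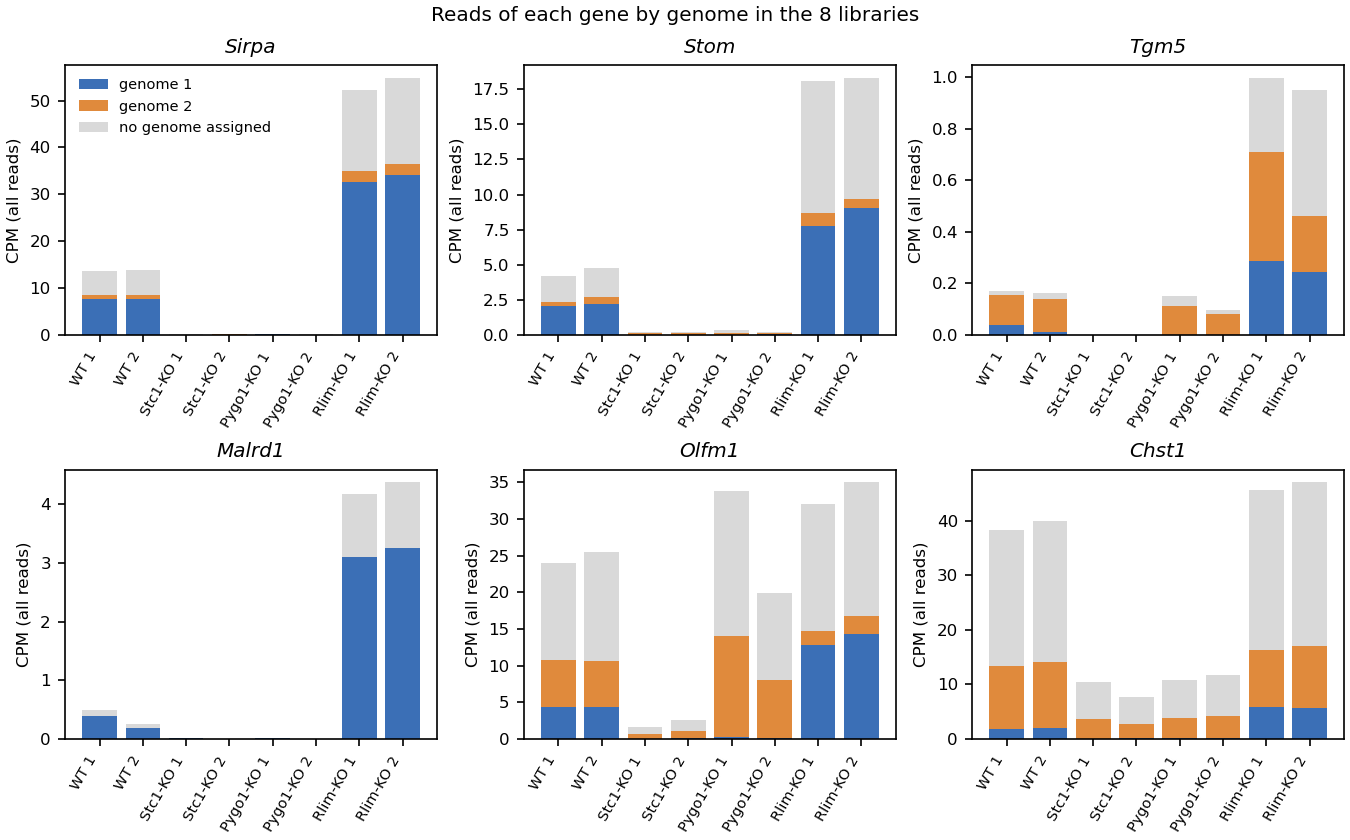
Reads of each gene in the 8 libraries in CPM of all reads, with a linear axis for each gene, stacked as genome 1, genome 2 and reads that carry no genome. Where a genome is known, Sirpa, Stom and Malrd1 are mostly genome 1 in the WT and Rlim-labelled libraries, Chst1 is mostly genome 2, and Olfm1 changes from mostly genome 2 in the Pygo1-labelled libraries to mostly genome 1 in the Rlim-labelled ones.

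**Figure D3:**
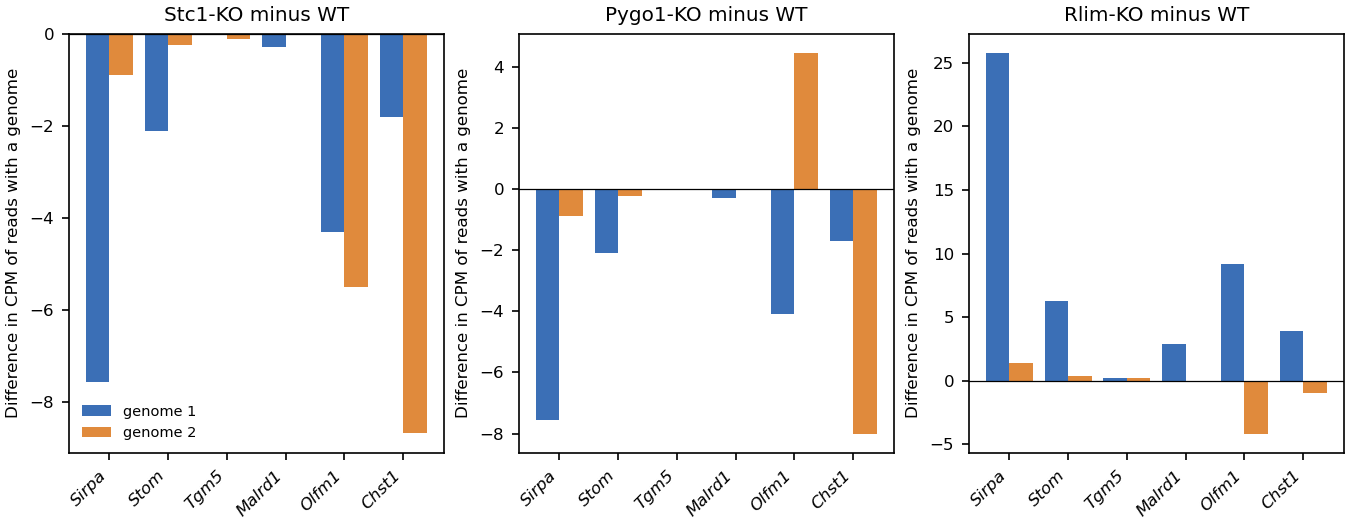
Difference in CPM of genome 1 reads and of genome 2 reads between each label and WT, as means of 2 libraries. The genome 1 bar is the longer for Sirpa, Stom and Malrd1 under each label, the genome 2 bar is the longer for Chst1 under the Stc1 and Pygo1 labels, and the 2 bars of Olfm1 point in opposite directions under the Pygo1 and Rlim labels.

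Levels can be compared between genes only per length of transcript. In CPM per kilobase of exon, the WT order was Chst1 (14.6), Olfm1 (6.96), Sirpa (2.81), Stom (1.59), Malrd1 (0.0563) and Tgm5 (0.0526), where the last 2 overlapped between libraries. Under the Rlim label Sirpa (10.9) stood above Olfm1 (9.42), and Chst1 (17.3) remained highest. Under the Stc1 label Chst1 (3.4) was again highest, followed by Olfm1 (0.599), and Stom (0.0698) stood above Sirpa (0.0235).

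The chromosome as a whole gave few genome 1 reads, in amounts that moved with the labels. Over 887 chromosome 2 genes with at least 50 reads carrying a genome in every library, the median genome 1 share was 6.82 and 6.93% in WT, 1.35 and 1.38% under the Stc1 label, 1.45 and 1.35% under the Pygo1 label, and 23.4 and 23.3% under the Rlim label. Only 2 of the other 18 autosomes had a lower median in each library, and the median over those autosomes was 51.9 to 58%. Genome 1 reads of chromosome 2 genes stood at 0.416, 0.443 and 2.83 times WT under the Stc1, Pygo1 and Rlim labels, as a median over 571 genes. Genome 2 reads stood at 0.997, 1.05 and 0.88 times WT, as a median over 871 genes. Total chromosome 2 counts made up 5.87 to 6.70% of a library. The part of this movement in the values of the 6 genes was not tested.

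The 6 genes were also set beside chromosome 2 genes with almost no genome 1 reads under the Stc1 and Pygo1 labels. Chosen after seeing the data, 379 genes with a share of at most 1% in all 4 of those libraries had a median share of 4.02 and 4.2% in WT and 18.7 and 19% under the Rlim label. For 279 of them with at least 20 genome 1 reads in each WT library, genome 1 reads under the Rlim label were 4.73 times those of WT at the median, and 2.78 to 7.08 times from the 5th to the 95th percentile. Sirpa (4.39 times), Stom (3.95), Olfm1 (3.12) and Chst1 (3.05) lay within that range. Malrd1 (11) and Tgm5 (10.3) lay above it. Neither met the limit of 20 genome 1 reads in each WT library, Malrd1 with 30 and 15 and Tgm5 with 3 and 1. Genome 2 reads of those genes stood at 0.87 times WT at the median, against 2.51 times for Sirpa, 2.03 for Stom and 0.341 for Olfm1.

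**Figure D4:**
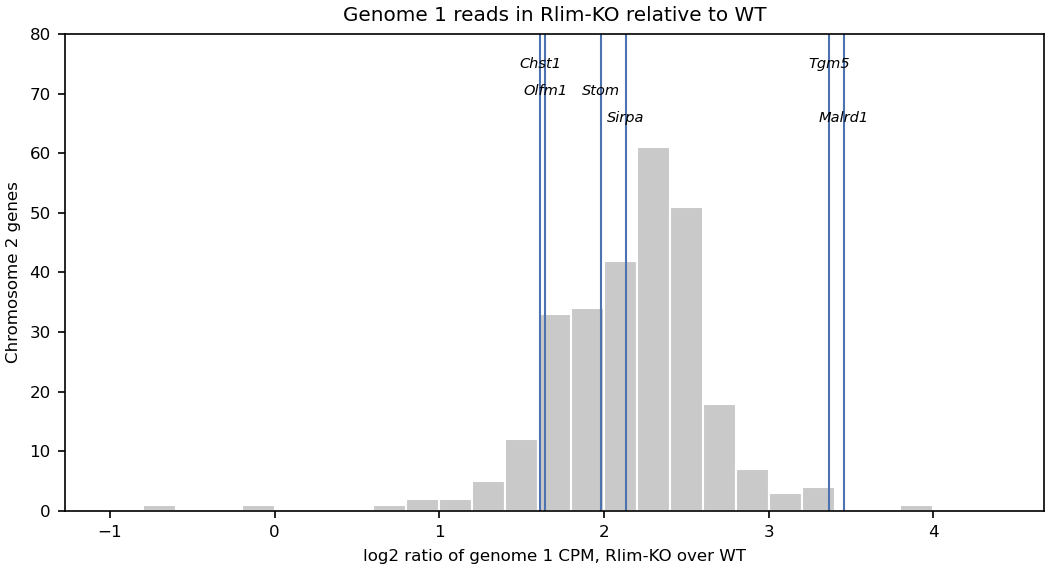
Distribution over 279 chromosome 2 genes of the log2 ratio of genome 1 CPM between the Rlim-labelled and the WT libraries, with a line for each of the 6 genes. Stom and Sirpa fall between the quartiles (ratios of 3.71 and 5.53). Chst1 and Olfm1 fall in the lower part, with 8.96 and 10.0% of the genes below them, and Tgm5 and Malrd1 at the upper end.

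A high WT share on this chromosome was rare. Among 1018 chromosome 2 genes with at least 20 reads carrying a genome in each WT library, 0.491% had a mean WT share at least as high as that of Malrd1, 0.982% as that of Sirpa, 1.37% as that of Stom, 5.01% as that of Olfm1, 21.8% as that of Tgm5 and 28.1% as that of Chst1. Malrd1 (15 such reads in WT replicate 2) and Tgm5 (12 and 11 in WT) fell short of that limit of 20 reads and were only compared with the set. In WT the share of Sirpa lay 83.8 and 81.1 percentage points above the chromosome's median, and that of Chst1 6.52 and 7.24 points above it.

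**Figure D5:**
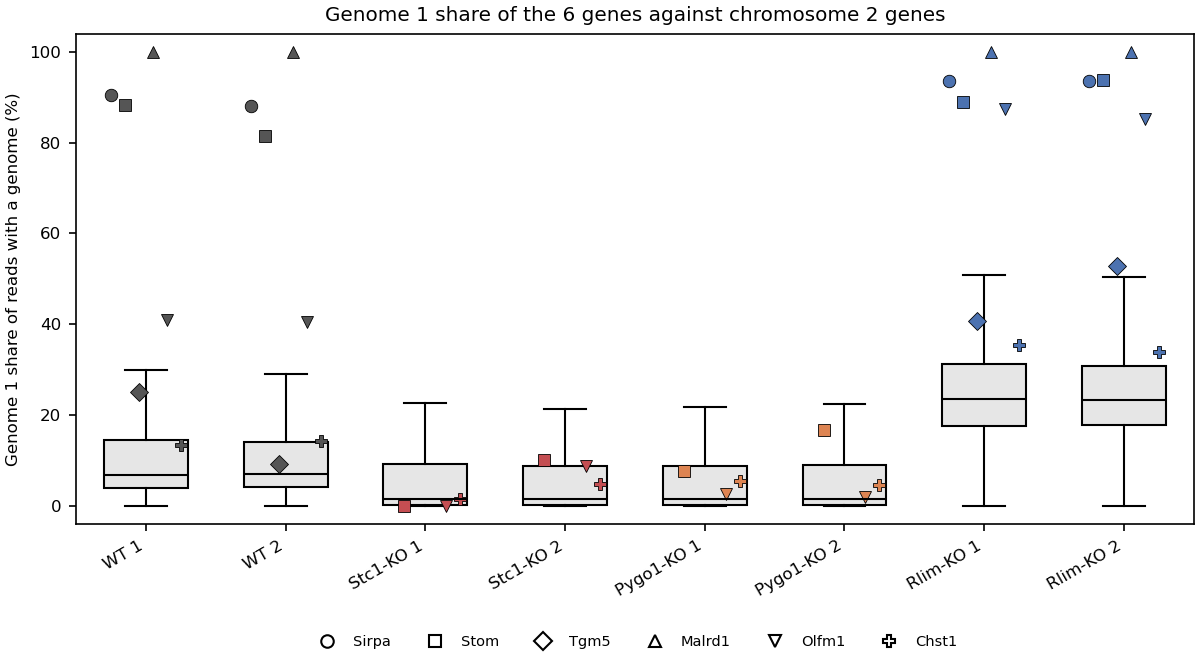
Genome 1 share of reads with a genome, in percent, for the 6 genes where at least 10 such reads were counted (symbols), beside boxes of 887 chromosome 2 genes in each library (median, quartiles, whiskers to 1.5 times the interquartile range, farther genes not drawn). Sirpa, Stom, Malrd1 and Olfm1 lie above the whiskers in the WT and Rlim-labelled libraries. Olfm1 stands at 40.9 and 40.5% in WT and at 87.5 and 85.2% under the Rlim label. Tgm5 lies above the whiskers only in Rlim-labelled replicate 2 (52.8%).

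Few other chromosome 2 genes were read mainly from genome 1 in WT. Genes with at least 20 reads carrying a genome in each WT library and a share of at least 90% in both were listed, leaving out the 6. There were 9: 6 processed pseudogenes and the coding genes Tmem141, Raly and Pltp. Of the 6 themselves only Malrd1 reached 90% in both WT libraries, with 15 such reads in WT replicate 2. The median log2 difference of the 9 was 0.00 under the Stc1 label, -0.23 under the Pygo1 label and 0.24 under the Rlim label, against 0.01, 0.00 and 0.01 over all genes tested. The 6 pseudogenes kept a genome 1 share of 97.9 to 100% in every library, also where the chromosome's median was 1.35 to 1.45%. The median of the 9 thus rests mostly on genes whose share did not move with the chromosome. By edgeR 1 of 9, Pltp, was called lower under the Stc1 and Pygo1 labels, and 0 were called higher or, under the Rlim label, in either direction. At an unadjusted p under 0.05 edgeR counted 3, 3 and 5 of the 9, and DESeq2 called 3 under each label. Over 590 chromosome 2 genes with a WT share of at most 10%, the medians were -0.04, -0.02 and 0.01, and over 146 with 20 to 80% they were -0.04, 0.00 and 0.08. Of the 590 genes edgeR called 0.508, 2.37 and 0.847% in either direction, and of the 146 genes 1.37, 3.42 and 0.685%, against 0.577, 2.35 and 1.4% of all genes.

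Pltp, which encodes the phospholipid transfer protein of plasma lipoproteins, was the gene of that list most like Sirpa and Stom. It stood at 2.55 and 2.62 CPM in WT, 0 and 0.0799 under the Stc1 label, 0.126 and 0.0413 under the Pygo1 label, and 7.55 and 7.75 under the Rlim label. The log2 differences were -5.94 ± 0.81, -4.91 ± 0.73 and 1.56 ± 0.57 (SE, n = 2 per group; edgeR, adjusted p = 0.0368, 0.0297 and 0.22). Left with Stc1-labelled replicate 1 alone, which held 0 reads, the Stc1 difference was -10.63, and with replicate 2 alone -5.00. Left with Pygo1-labelled replicate 1 or 2 alone, the Pygo1 difference was -4.35 or -5.92. Its genome 1 share was 96.5 and 98% in WT and 99.6 and 99.2% under the Rlim label. The Stc1 call ended when WT replicate 1 or 2 was left out (adjusted p in edgeR of 0.352 and 0.368), and likewise for either Rlim-labelled replicate (0.166 and 0.169). The Pygo1 call was lost without any 1 of the WT, Pygo1-labelled or Rlim-labelled libraries (0.0677 to 0.271).

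Raly, an RNA-binding protein of the hnRNP family, had a WT share of 94.4% in both libraries and was called in no comparison. It stood at 197 and 219 CPM in WT, 184 and 247 under the Stc1 label, 185 and 231 under the Pygo1 label, and 207 and 218 under the Rlim label (edgeR, adjusted p = 0.917, 0.997 and 0.951).

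The genes next to the 6 were examined in total RNA. Chosen after seeing the data, the nearest gene on either side with at least 50 reads carrying a genome in every library gave 12 neighbours. Of these 0 were called by edgeR, with 3, 2 and 1 at an unadjusted p under 0.05 under the Stc1, Pygo1 and Rlim labels, and DESeq2 called 1, 2 and 1. Over all genes tested, edgeR called 0.577, 2.35 and 1.4%, with 16, 20.6 and 17.9% at an unadjusted p below 0.05, and DESeq2 called 5.36, 9.46 and 7.89%, so counts this small do not set the neighbours apart from other genes. Their log2 differences ran from -0.70 to 0.46 under the Stc1 label, -0.50 to 0.42 under the Pygo1 label and -0.70 to 0.28 under the Rlim label. Gsn, the actin-severing protein gelsolin, starts 57.6 kb from the start coordinate of Stom and stood at 673 and 730.2 CPM in WT, 783 and 346 under the Stc1 label, 701 and 611 under the Pygo1 label, and 614 and 649.6 under the Rlim label. Stk35, a kinase gene 208 kb from Sirpa, stood at 76.9 and 81.5 CPM in WT, 88.8 and 71.4 under the Stc1 label, 69 and 72.9 under the Pygo1 label, and 86.7 and 88.8 under the Rlim label.

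The genome 1 share around the 6 genes was lower than WT under the Stc1 and Pygo1 labels and higher under the Rlim label, as a median over the nearest genes of Malrd1 and of Sirpa and in Gsn and Stk35. The genome 1 share of Gsn was 3.69 and 3.64% in WT, 0.172 and 0.0678% under the Stc1 label, 0.205 and 0.0863% under the Pygo1 label, and 19.9 and 19.5% under the Rlim label. For Stk35 it was 7.48 and 7.23% in WT, 2.06 to 2.80% in the Stc1-labelled and Pygo1-labelled libraries, and 28 and 25.6% under the Rlim label. Over the 10 nearest such genes of Malrd1, 5 on each side, the median share was 4.45 and 4.85% in WT, 0 to 0.217% under the Stc1 and Pygo1 labels and 24.6 and 24.3% under the Rlim label. Over those of Sirpa it was 18.9 and 20.3% in WT, 15.9 to 17.4% under those labels and 33.9% in both Rlim-labelled libraries. Of the nearest genes with a WT share of 20 to 80% on either side of each gene, 1 passed the edgeR test in 1 comparison: Tfpi, an inhibitor of coagulation 8167 kb from Chst1, rose under the Pygo1 label (log2 0.84).

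Across the 8 libraries, the levels of Sirpa and Stom were alike (Pearson r = 0.993 on log2(CPM + 0.5)). For Tgm5 and Malrd1 r was 0.977, but both lay under the added 0.5 CPM outside the Rlim-labelled libraries. That r thus rests mostly on the Rlim-labelled pair. Under the Pygo1 label the 2 genes differed, with 12 and 7 reads of Tgm5 (13 and 13 in WT) and 2 and 0 of Malrd1 (38 and 21 in WT). Olfm1 was least like the others, with r from 0.520 to 0.670. The 8 points are 4 pairs sharing a label, so these values are descriptions. Among 11743 other genes, each averaging 1 CPM or more, Pltp was most like Sirpa (0.997) and Stom (0.998). Ass1, argininosuccinate synthase of the urea cycle, was most like Tgm5 (0.978), and Fgf7, keratinocyte growth factor, most like Malrd1 (0.981). Both lie on chromosome 2. Ass1 and Fgf7 stayed under 1 CPM except in the Rlim-labelled libraries, and entered the search only through them. Their likeness to Tgm5 and Malrd1, which are also high there, thus rests on that pair. Lmbrd1 on chromosome 1 was most like Olfm1 (0.983) and Anxa11 on chromosome 14 most like Chst1 (0.990). The second in order were Chd8 for Sirpa (0.983), Dcun1d4 for Stom (0.975), Fgf7 for Tgm5 (0.976), Rheb for Malrd1 (0.980), Yaf2 for Olfm1 (0.972) and Chd8 for Chst1 (0.964), of which Fgf7 lies on chromosome 2.

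Ass1 and Fgf7 were, like Malrd1, read mainly from genome 1 under the Rlim label, but Fgf7 was read from both genomes in WT. Ass1 stood at 0.0651 and 0.188 CPM in WT, 0 and 0 under the Stc1 label, 0.0629 and 0.0963 under the Pygo1 label, and 6.53 and 7.05 under the Rlim label, where 99.6 and 100% of its reads with a genome were genome 1. Fgf7 stood at 0.586 and 0.313 CPM in WT, 0.319 and 0.213 under the Stc1 label, 0.516 and 0.165 under the Pygo1 label, and 6.96 and 7.04 under the Rlim label. Its genome 1 share was 43.8 and 50% in WT, 0% in each Stc1-labelled and Pygo1-labelled library, and 94.6 and 95.6% under the Rlim label. Outside the Rlim label Fgf7 lay under 1 CPM, so its shares there rest on few reads and carry no interval. Anxa11 stood at 80.6 and 82.2 CPM in WT, 41.5 to 54.6 in the Stc1-labelled and Pygo1-labelled libraries, and 82.7 and 87.1 under the Rlim label, and Chd8 stayed between 85.3 and 107 CPM.

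Known partners of the 6 genes were tested within the fit over all genes, and their counts are read against the shares over all genes: 0.577, 2.35 and 1.4% called by edgeR, 16, 20.6 and 17.9% at an unadjusted p below 0.05, and 5.36, 9.46 and 7.89% called by DESeq2 under the Stc1, Pygo1 and Rlim labels. Of the SIRPA and CD47 signalling list, which holds the ligand Cd47 and phosphatases and kinases that act on the receptor, 11 of 17 genes were tested and 0 were called in any comparison by edgeR. At an unadjusted p under 0.05 it counted 1, 2 and 2 under the Stc1, Pygo1 and Rlim labels, and DESeq2 called 0, 2 and 1. Its median log2 differences were -0.06, -0.05 and -0.02 under the Stc1, Pygo1 and Rlim labels. Of the olfactomedin list 7 of 15 genes were tested and of the FGF15 and bile acid list 3 of 14, and edgeR called 0 of them. At an unadjusted p under 0.05 it counted 3, 2 and 2 olfactomedin genes and 1, 1 and 0 bile acid genes, and DESeq2 called 1, 1 and 0 of each. Median log2 differences were 0.16, 0.40 and 0.47 for the olfactomedin list, and 0.47, 0.35 and 0.29 for the bile acid list.

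Of 15 tested genes of the stomatin list, Aqp1, the water channel aquaporin 1 and a partner of stomatin in red cells, fell in 2 comparisons. It stood at 5048 and 5471 CPM in WT, 2704 and 1739 under the Stc1 label, 1544 and 1452 under the Pygo1 label, and 1927 and 2060 under the Rlim label (log2 -1.24 ± 0.21, -1.81 ± 0.22 and -1.40 ± 0.22; edgeR, adjusted p = 0.0678, 0.0161 and 0.0386). It was lower under all 3 labels, also where Stom was higher. The Pygo1 and Rlim calls were each lost when any 1 of the WT, Pygo1-labelled or Rlim-labelled libraries was left out (edgeR, adjusted p from 0.0557 to 0.21 and from 0.0578 to 0.4).

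Of 6 tested genes of the transglutaminase and cornified envelope list, 1 rose under the Pygo1 label: Sprr1a, a small proline-rich envelope protein, from 32.4 and 32.5 CPM to 107 and 106 (log2 1.71 ± 0.29; edgeR, adjusted p = 0.0413). Of 21 tested genes of the sulfotransferase and keratan sulfate list, 1 rose under that label: Chst2, which sulfates N-acetylglucosamine of similar chains, from 16.4 and 18.2 CPM to 69.9 and 43.9 (log2 1.72 ± 0.27; edgeR, adjusted p = 0.035). Sprr1a lies on chromosome 3, where the median genome 1 share was 79.3% in both WT libraries and 99.7 and 99.8% under the Pygo1 label. For chromosome 9, which holds Chst2, it was 98.7% in both WT libraries and 99.9% in both Pygo1-labelled ones. The part of these shares in the 2 levels was not tested. The Sprr1a call was lost without any 1 of the WT, Pygo1-labelled or Rlim-labelled libraries (edgeR, adjusted p 0.103 to 0.349). The Chst2 call was lost in the same way (0.0767 to 0.339) except without Pygo1-labelled replicate 2 (0.0354). Under the Pygo1 label 4 genes of the stomatin list, 2 of the transglutaminase list and 10 of the sulfotransferase list had an unadjusted edgeR p under 0.05, and DESeq2 called 3, 2 and 5, the last all higher. Under the Rlim label these counts were 7, 1 and 4 unadjusted, and 4, 1 and 1 in DESeq2. Under the Stc1 label edgeR called 0 genes of the stomatin, transglutaminase and sulfotransferase lists, with 2 of each at an unadjusted p under 0.05. The DESeq2 counts were 1, 2 and 0.

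Myeloid cells, red cells, neurons, keratinocytes and intestine, from which some of the 6 genes are best known, were checked by their markers. Of 10 myeloid markers, 6 stayed under 1 CPM in every library, among them Ptprc, Adgre1, Itgam and Tyrobp, and the summed level was 106 and 113 CPM in WT, 90.4 to 116 in the Stc1-labelled and Pygo1-labelled libraries, and 88.7 and 89.5 under the Rlim label. That sum was mostly Csf1r (26.5 to 57 CPM) and Cd14 (46 to 69.5 CPM). All 7 erythroid markers were under 1 CPM throughout. Of 6 neuronal markers 3 stayed under 1 CPM, Snap25 at 0 among them, with a sum of 11.4 and 12.6 CPM in WT, 30 and 10.8 under the Stc1 label, 8.99 and 27.3 under the Pygo1 label, and 24.5 and 22.9 under the Rlim label. Of 7 keratinocyte markers 5 stayed under 1 CPM, with a sum of 1.62 to 5.77 CPM. Of 6 intestinal markers 2 did, with a sum of 3.36 and 4.12 CPM in WT, 5.11 and 12.1, and 10.1 and 1.68 under the Stc1 and Pygo1 labels, and 14.3 and 14.6 under the Rlim label, where Cdx2 made up 10.6 and 11 CPM. Of 10 kidney epithelial markers, Cdh16, Pax2, Pax8 and Lrp2 were abundant in all libraries, with a list sum of 3030 to 4446 CPM. The markers Krt18, Umod and Slc12a1 stayed under 1 CPM in every library, and Epcam (0.651 to 2.67 CPM) and Krt8 (0.213 to 1.68) were low. Cdh1 stood at 9.52 and 8.91 CPM in WT, 20.1 and 6.36 under the Stc1 label, 0.201 and 0.344 under the Pygo1 label, and 0.498 and 0.514 under the Rlim label. Of 6 endothelial markers 4 stayed under 1 CPM, and Cdh5 stood at 100.3 CPM in Stc1-labelled replicate 2 against 0.991 to 6.41 in the other libraries. The part of these markers in the levels of the 6 genes was not tested.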

How the data were processed

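The authors deposited raw counts per Ensembl gene for 8 libraries: all reads, genome 1 reads and genome 2 reads. HISAT2 2.0.5, featureCounts, Cufflinks and the build mm10 are named, per the submitters' processing notes. The strand setting, annotation version and genome-assignment tool are not given in the sources used here. Symbols and positions came from GENCODE M21 (49411 genes matched; the 259 others held at most 0.0139% of counts).

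The 6 genes, lists and alternatives were chosen with earlier results of these data known. All-read counts entered an edgeR 4.0.16 model (R 4.3.3; TMM, default filter, 17839 genes, quasi-likelihood, 1 mean per group over all 8 libraries) and called at an adjusted p under 0.05. Genome counts were fitted with library terms, leaving out 329 genes whose genome counts exceeded all counts. DESeq2 1.42.0 was an alternative. CPM use TMM factors. The SE of a log2 difference is its size divided by the square root of the edgeR quasi-likelihood F. It thus uses a spread estimated over all 8 libraries, not that of the compared pairs alone. Shares have 95% Wilson intervals and pooled ratios exact conditional intervals, which cover counting error only, as reads carry no molecular identifiers. A count of 0 allows up to 3 counts.

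Named besides the 6 were neighbours, the strongest genes of each share list per kilobase, the 2 most correlated genes (log2(CPM + 0.5), mean of at least 1 CPM) and called genes of each pathway list. Replicate numbers did not pair libraries.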

Additional observations from a re-analysis of the deposited data

Results flagged for a closer look

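For 11 contrasts, both libraries of 1 label stood above both WT libraries and both of another label below them. The difference between the labels was not tested, the comparisons share the WT pair, and the genes were chosen on these values. Rlim label less Stc1 label, the log2 difference was 8.84 for Sirpa, 6.52 for Stom, 9.22 for Tgm5, 8.98 for Malrd1, 3.97 for Olfm1 and 2.35 for Chst1. Rlim label less Pygo1 label, it was 9.06 for Sirpa, 6.04 for Stom, 2.95 for Tgm5, 8.18 for Malrd1 and 2.03 for Chst1. The fitted values of Tgm5 and Malrd1 against the Stc1 label, and of Malrd1 against the Pygo1 label, rest on 0 to 2 reads per library there and depend on the prior count of the fit.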

How the results depend on the processing

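The log2 differences of the 6 genes kept their sign in all 14 alternatives for each label, except that of Olfm1 under the Pygo1 label, which kept it in 13 (-0.32 to 0.44). Counts of all genes called moved far more. With 103, 419 and 250 genes called on all counts under the Stc1, Pygo1 and Rlim labels, the counts were 361, 867 and 610 with no filter, and 956, 1688 and 1407 in DESeq2. With the compared groups only they were 0, 1699 and 8340 (edgeR; 1735 genes under the Stc1 label at an unadjusted p under 0.05, and 956 in DESeq2 on all libraries). With the replicate number as a block they were 18, 109 and 26, although same-numbered libraries did not deviate together (correlations -0.196 to 0.221). Under the block the Pltp, Sprr1a and Chst2 calls and the Rlim-label call of Aqp1 were lost (edgeR, adjusted p = 0.069 to 0.113). Leaving out 1 library gave 3 to 4484, 8 to 3678 and 3 to 3036 calls, lowest without a WT replicate and highest without a Stc1-labelled one. Calls on genome share, 652, 2319 and 1275, became 1195 and 5303 for the Pygo1 and Rlim labels with the compared groups only, and ran from 83 to 1103, 883 to 4139 and 0 to 2228 with 1 library left out. The 0 came without either WT or either Rlim-labelled replicate (edgeR; 2224, 2126, 2172 and 2158 genes at an unadjusted p under 0.05). The chromosome's median share became 10.9, 6.56, 6.44 and 25.6% in WT and the Stc1, Pygo1 and Rlim labels from pooled reads, and 1.39 and 1.48% for the Stc1 and Pygo1 labels at 200 reads. With 1 replicate left out it was 6.82 to 6.93, 1.35 to 1.38, 1.35 to 1.45 and 23.3 to 23.4%. The median log2 difference of the 9 genes read from genome 1 in WT was 0.13 under the Rlim label for a WT share of at least 80%, and ran from -0.13 to 0.11, -0.54 to -0.10 and 0.12 to 0.33 with 1 library left out. Few reads limit Tgm5, Malrd1 and the allelic reads of Sirpa and Stom under the Stc1 and Pygo1 labels.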

Other observations

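The following chromosome 2 genes were picked after their values were seen. Sulf2, a sulfatase that edits heparan sulfate, had a genome 1 share of 48 and 46.7% in WT, 47.3 and 48% under the Stc1 label, 47.3 and 48% under the Pygo1 label, and 53.8 and 52% under the Rlim label. Vim, the intermediate filament vimentin, stood at 44.2 and 43.3% in WT, 43.1 and 38.3% under the Stc1 label, 40.3 and 40.1% under the Pygo1 label, and 59.1 and 59.9% under the Rlim label. The share of Raly ran against the chromosome. It was 94.4% in both WT libraries, 98.3% in both Stc1-labelled libraries, 97.8% in both Pygo1-labelled libraries, and 84.6 and 84.4% under the Rlim label.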
